A study of Homo sapiens with 12 samples.

Results

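The histone genes were compared between ES-2 cells carrying a control vector and ES-2 cells carrying an SRMS shRNA, both after 8 hours in 15 µM cisplatin, a platinum drug that crosslinks DNA. Members were taken as every row of the deposited table whose current gene symbol starts as a clustered or variant histone symbol does (H1-, H2AC, H2AZ, H2AX, H2AJ, H2AW, H2BC, H3-, H3C, H4C, H4- or MACROH2A). The rule used names and no measured value, and it found 71 genes of 14029 tested. Of 80 protein-coding genes whose names match it, the other 9 (H1-7, H1-8, H2AC1, H2AC7, H2BC1, H2BC26, H2BC3, H3-4 and H4C13) were not analysed here. The 71 hold 58 replication-dependent genes in the clusters of chromosomes 1 and 6, 11 variant genes elsewhere, and 2 that belong to neither class, H4C16 on chromosome 12 and H2BC12L on chromosome 21.

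ES-2 is an established human ovarian cancer line. The labels describe 12 samples, 3 for each construct in PBS and 3 for each in cisplatin, and only the 6 cisplatin libraries are used here. The vector cells are called wild type in the labels and the other cells SRMS knockdown, with no clone, hairpin or culture of origin named for either, so the spread behind the p-values is that of these samples alone and could be technical. SRMS, a non-receptor tyrosine kinase, was itself barely detected, with a signal of 0.0669, 0.306 and 0.819 in vector replicates 1 to 3 and of 0.328, 1.07 and 0.863 in the libraries labelled SRMS shRNA (log2 change 0.52, SE 0.303, adjusted p = 0.168; adjusted p = 0.00782 with the replicate number as a block). It was therefore not lower in the libraries labelled as the knockdown, and every direction below is one between labels.

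Replication-dependent histone genes supply the bulk of new histone protein in S phase. Their transcripts normally have no intron and end not in a poly(A) tail but at a short stem-loop, which SLBP binds and which directs cleavage, translation and decay. Transcription of the clusters is driven by NPAT, a cyclin E-CDK2 substrate at histone locus bodies. Variant histones are made throughout the cycle from ordinary polyadenylated transcripts and are placed by their own chaperones. The libraries were made from poly(A)-selected RNA, per the labels' protocols, so for the clustered genes they hold the transcripts that carried a poly(A) tail or were retained without one.

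The stem-loop was looked for in the 3′ UTRs of all GENCODE 29 transcripts of each gene, as 16 bases matching the histone stem-loop consensus. Of the 58 replication-dependent genes, 26 had it, another 27 have models with coding sequence only, and 5 have a UTR without it. Over all genes tested 32 had it (0.228%), of which 28 are histone genes by the rule. The forms are shown because they mark the class and because a variant gene shares the feature. Capitals mark the 2 arms of the stem and lower case the loop, with 14, 4, 4, 3 and 1 replication-dependent genes for the first 5.
Most frequent form: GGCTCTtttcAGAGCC
Loop changed: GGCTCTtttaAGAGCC
Stem changed: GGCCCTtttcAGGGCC
Stem and loop changed: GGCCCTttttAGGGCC
Single gene: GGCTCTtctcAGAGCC
H2AX: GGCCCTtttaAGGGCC
H2AX, the variant phosphorylated at DNA breaks, was the 1 variant gene with a stem-loop, and its model runs on into a longer UTR.

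Among the 71 histone genes 42 were higher and 1 was lower in the libraries labelled SRMS shRNA (limma, Benjamini-Hochberg adjusted p under 0.05 over all 14029 genes). In the same fit 26.6% of all genes were higher and 30.2% lower, 56.8% in either direction. On the log2(signal + 0.5) scale, where signal is the deposited normalized read count, on a scale close to CPM, the median histone gene changed by 0.40 and the median gene by 0.00. The scale understates the change of genes with little signal. With edgeR's quasi-likelihood test on reads recovered from the table, 42 were again higher and 1 lower, beside 27.7% and 29.7% of all genes, and the medians were 0.82 and 0.01. DESeq2 gave 39 and 1, beside 25.6% and 27% of all genes. With the replicate number as a block limma gave 48 and 1, beside 31% and 34.3%, and with scaling to the median gene 54 and 1, beside 44.6% and 17.9%. Fewer were called with quantile scaling, 31 higher and 1 lower (25 of the 58 replication-dependent genes higher), beside 28.3% and 26.3% of all genes. Averaging replicates 2 and 3 of each group gave 34 and 1, beside 19.8% and 23.5%. With the replicate block and the trend over transcript length and GC content removed, 25 were higher and 6 lower, beside 34.4% and 27.5%. The 3 libraries of each group did not overlap for 42 genes in the higher and 1 in the lower direction, as for 29.7% and 32.9% of all genes. In bulk libraries, fewer cells in a state and less RNA per cell cannot be told apart.

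**Figure D1:**
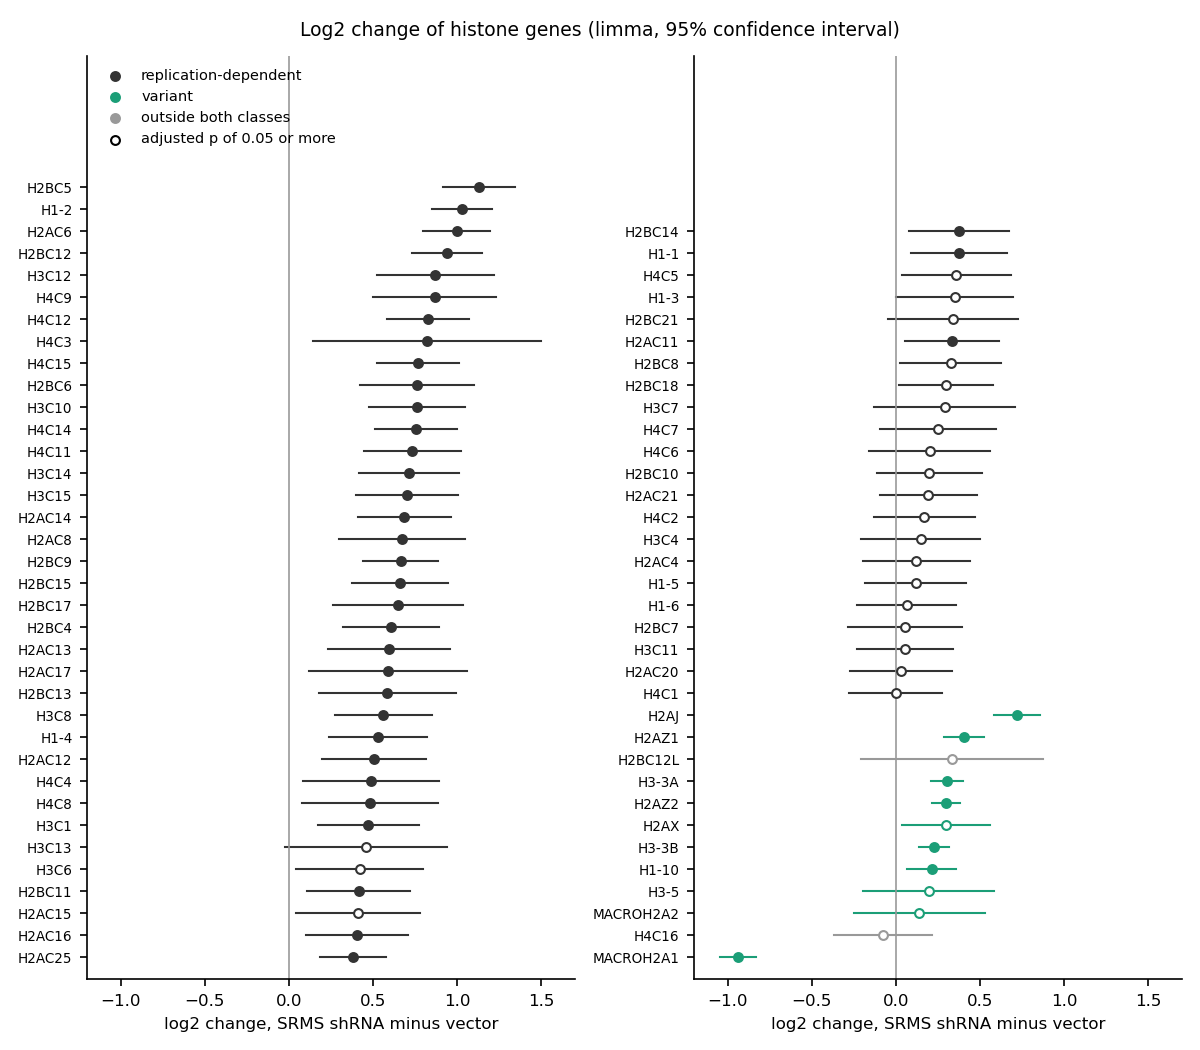
Log2 change of signal (libraries labelled SRMS shRNA minus vector, x axis) for 70 of the 71 histone genes, from limma with 95% confidence intervals; filled points have an adjusted p under 0.05. All 36 filled replication-dependent genes lie above 0, and MACROH2A1, at -0.94, is the only filled point below it.

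The replication-dependent genes, 58 of the 71, held 36 of the 42 higher calls of the first limma fit. In it 36 of 58 (62.1%) rose and none fell, beside 26.6% and 30.2% of all genes. Of the 58 estimates 57 lay above 0, beside 7072 of 14029 over all genes, and the median log2 change was 0.48. On recovered reads edgeR called 35 up and none down, at a median of 0.92. Among the 11 variant genes 6 (54.5%) rose and 1 (9.09%) fell, with a median of 0.23 by limma and 0.31 by edgeR. Summed over the 58 genes, the signal was 93.6, 102 and 103 in vector replicates 1 to 3 and 174, 196 and 194 in the libraries labelled SRMS shRNA, a ratio of the means of 1.89. The variants summed to 2036, 1960.3 and 1967 and 2348, 2352 and 2311, a ratio of 1.18. In both classes each library labelled SRMS shRNA lay above each vector library. The same held for the sum over all 14029 genes, with a ratio of 1.05. For the 20% of other genes with the shortest selected transcripts the ratio was 1.22. The difference between the 2 classes was not tested. Counts below by family, cluster, pair, promoter and transcript end stand beside 26.6% of all genes higher. Of other genes with a transcript under 700 bases 66.2% were higher. Low signal was common in the clusters, since 37 of the 58 replication-dependent genes had a mean below 1 over the 6 libraries. Of these 37 estimates 36 lay above 0, beside 1513 of 2156 other genes below 1. The filter on low genes is not described, so some may be in the table only through the group where they are higher. Of the 21 with a mean of at least 1, 21 lay above 0, beside 5491 of 11802 other genes at that level.

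**Figure D2:**
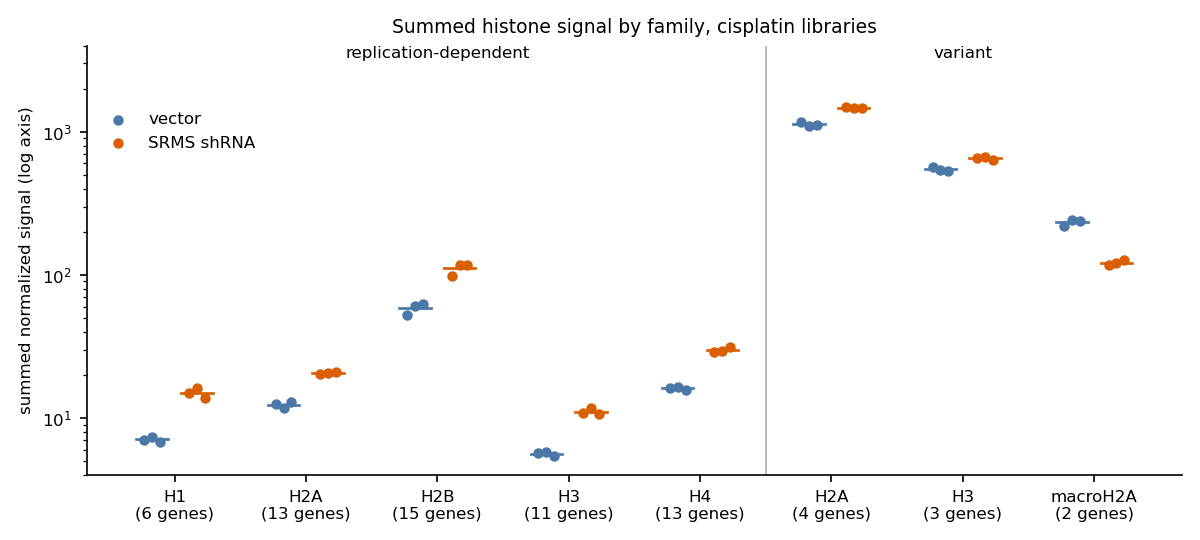
Summed normalized signal (y axis, log scale) of 8 histone families in each library; points are libraries and bars are means of 3. All 5 replication-dependent families and the variant H2A and H3 families lie higher in the libraries labelled SRMS shRNA with no overlap, while the macroH2A sum falls to 0.520 of its vector level. The sum over all genes tested, which is not drawn, was also higher with no overlap, at a ratio of 1.05.

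The linker histones, which bind where DNA enters and leaves the nucleosome, had 3 of 6 clustered genes higher, and their sum rose 2.11-fold. H1-2 (chr6:26055787-26056428 on GRCh38, minus strand, a coding-only model with no intron) read 6.26, 6.57 and 6.13 in the vector libraries and 13.5, 14.4 and 12.4 in those labelled SRMS shRNA (log2 change 1.03, SE 0.0801, adjusted p = 3.90e-06). The groups were far apart, and the gene held most of the family's sum. H1-4 went from 0.223 ± 0.0905 to 0.539 ± 0.039 (SD, n = 3 in each group here and below) with log2 change 0.53, SE 0.131, adjusted p = 0.00571. H1-1 had 0, 2 and 4 reads in the vector libraries against 4, 7 and 8 (log2 change 0.38, SE 0.128, adjusted p = 0.0285). Its call ended when any of 4 single libraries was left out (vector replicates 1 and 2 and replicates 2 and 3 labelled SRMS shRNA), with an adjusted p of up to 0.0939. H1-3 (0.126 to 0.296), H1-5 (0.341 to 0.416) and the testis linker H1-6 (0.033 to 0.058), all below 1, did not pass the test.

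Core histone H2A had 9 of 13 clustered genes higher, and its sum rose 1.67-fold. H2AC6 (chr6:26124145-26139116, plus strand) gave 2.61, 2.49 and 2.53 in the vector libraries and 5.66, 5.53 and 5.53 in the others, so that the replicates of a group lay within a narrow band and the groups were well separated (log2 change 0.997, SE 0.089, adjusted p = 9.09e-06). Its selected transcript, a spliced model of 2 exons, is 1654 bases long and holds both the stem-loop and further sequence. H2AC25, the measured gene of a small group at the distal end of chromosome 1, went from 4.98 ± 0.249 to 6.64 ± 0.375 (log2 change 0.38, SE 0.0875, adjusted p = 0.00381). H2AC14 (0.0887 ± 0.0405 to 0.446 ± 0.0559; log2 change 0.69, SE 0.124, adjusted p = 8.85e-04) and H2AC13 (0.562 ± 0.238 to 1.08 ± 0.156; log2 change 0.60, SE 0.163, adjusted p = 0.0102) share 83.7% and 62.3% of their 50-base words with each other, so the split of reads between them is uncertain. H2AC8 moved from 0.339 ± 0.169 to 0.829 ± 0.191 (log2 change 0.67, SE 0.169, adjusted p = 0.00635). For H2AC12 the change was from 0.196 ± 0.0387 to 0.493 ± 0.144 (log2 change 0.51, SE 0.138, adjusted p = 0.00988).
The H2AC17 call (1.12 to 1.92; log2 change 0.59, SE 0.211, adjusted p = 0.0354) came with overlapping groups, and its reads can be shared with H3C12, whose longer gene covers it on the same strand. H2AC16 (0.0819 to 0.274; log2 change 0.40, SE 0.136, adjusted p = 0.0264) and H2AC11 (1.39 to 1.87; log2 change 0.33, SE 0.126, adjusted p = 0.0436) lie close to the threshold. Replicates 2 and 3 labelled SRMS shRNA and vector replicate 3 each ended the calls of H2AC17 and H2AC16 when left out, as did vector replicate 2 for H2AC17 (adjusted p up to 0.138) and vector replicate 1 for H2AC16 (up to 0.0943). Any library but vector replicate 3 ended that of H2AC11 (up to 0.153). The H2AC11 call was also absent with edgeR (adjusted p = 0.0814). H2AC4 (0.0509 to 0.0945), H2AC15 (0.537 to 0.904, adjusted p = 0.0567, and 0.0191 with the replicate block), H2AC20 and H2AC21 (0.0688 to 0.152) did not pass. H2AC20 was among the 3 least changed of the class, at 0.435, 0.415 and 0.401 against 0.292, 0.495 and 0.544 (95% interval of the log2 change -0.27 to 0.33).

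H2B, the partner of H2A in the nucleosome, had 10 of 15 clustered genes higher, and its sum rose 1.91-fold. H2BC12 held 76.0% of that sum in the vector libraries, and without it the other 14 genes rose 1.86-fold in sum. H2BC12 (chr6:27146418-27146798, minus strand) had by far the largest signal per length of the class, 116 per kilobase of its coding-only model in the vector libraries, where the next, H4C12, had 11.9. It read 38.9, 46.3 and 47.5 in the vector libraries and 73.6, 91.4 and 91.2 in those labelled SRMS shRNA, with replicate 1 the lowest in both groups and no overlap between them (log2 change 0.94, SE 0.0926, adjusted p = 1.76e-05). It shares 61.4% of its 50-base words with H2BC12L on chromosome 21, which read 0.602, 1.05 and 0.593 against 0.511, 1.4 and 1.44 and did not pass (log2 change 0.33, SE 0.244, adjusted p = 0.268), so reads of the pair may be split. H2BC5 (chr6:26158146-26171349, plus strand) showed the largest limma log2 change of all 71 members, from 3.65, 3.21 and 3.01 to 7.7, 8.17 and 7.48 (log2 change 1.13, SE 0.0959, adjusted p = 6.47e-06). On recovered reads its edgeR log2 change of 1.27 was below that of several genes with a mean signal under 1, the highest being H2AC14 at 2.27. H2BC9 went from 3.01 ± 0.219 to 5.07 ± 0.378 (log2 change 0.66, SE 0.10, adjusted p = 2.83e-04) and H2BC4 from 1.44 ± 0.31 to 2.43 ± 0.0903 (log2 change 0.61, SE 0.129, adjusted p = 0.00237). H2BC9 has the stem-loop in its selected transcript. For H2BC4 and H2BC5 the selected transcript has 2 exons and no stem-loop, which is found only in another model of each gene.

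At lower signal, H2BC15 moved from 1.65 ± 0.345 to 2.88 ± 0.122 (log2 change 0.66, SE 0.128, adjusted p = 0.0014). Its gene spans H2AC15 on the other strand and H2AC16 on its own. H2BC6 had the steepest ratio of the called H2B genes, from 0.153 ± 0.0756 to 0.61 ± 0.176 (log2 change 0.76, SE 0.153, adjusted p = 0.00174). H2BC17 (0.397 ± 0.111 to 0.921 ± 0.299; log2 change 0.65, SE 0.173, adjusted p = 0.00878), H2BC13 (0.43 ± 0.0861 to 0.924 ± 0.396; log2 change 0.58, SE 0.183, adjusted p = 0.0193), H2BC11 (1.4 ± 0.215 to 2.03 ± 0.327; log2 change 0.41, SE 0.137, adjusted p = 0.0248) and H2BC14 (0.0955 ± 0.0539 to 0.273 ± 0.0699; log2 change 0.38, SE 0.133, adjusted p = 0.0335) also passed. The last 3 each lost the call with some single library left out: H2BC13 without vector replicate 1 or replicate 3 labelled SRMS shRNA (adjusted p up to 0.0657), H2BC11 without vector replicate 2 or replicate 1 or 2 labelled SRMS shRNA (up to 0.10), and H2BC14 without vector replicate 1 or 3 or replicate 2 or 3 labelled SRMS shRNA (up to 0.119). H2BC7 (0.0882 to 0.116), H2BC8 (0.213 to 0.396), H2BC10 (0.0567 to 0.134), H2BC18 (0.962 to 1.3) and H2BC21 (0.793 to 1.1) did not pass.

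**Figure D3:**
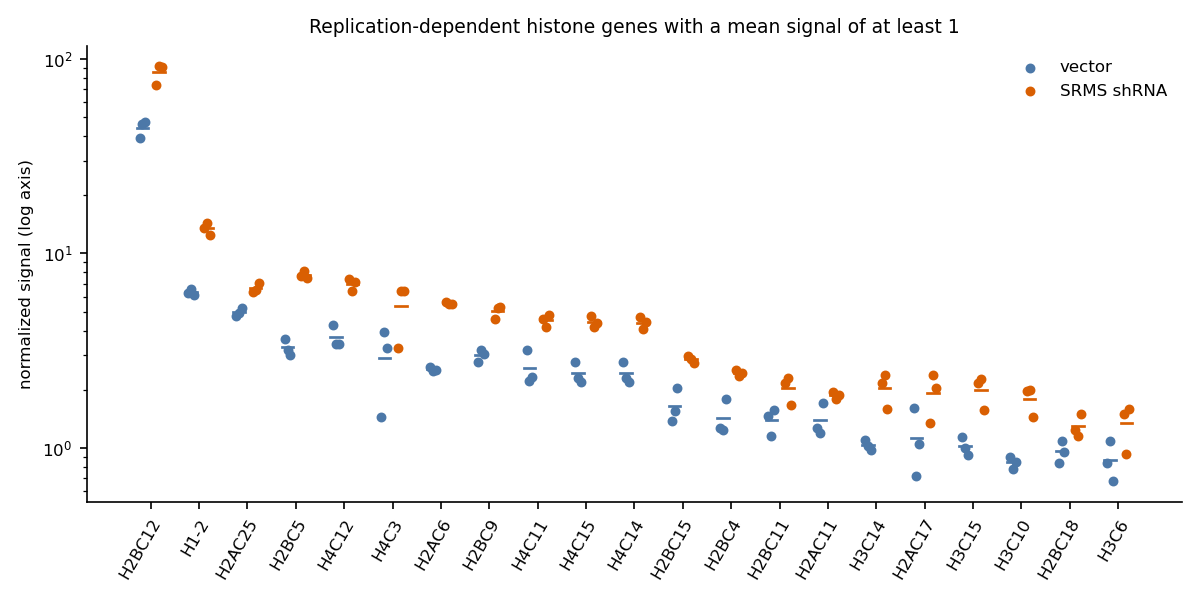
Normalized signal (y axis, log scale) in each library for the 21 replication-dependent genes with a mean of at least 1 over the 6 libraries; points are libraries and bars are means of 3. H2BC12 stands above the rest in both groups, and the H4C3 points of replicate 1 lie below those of replicates 2 and 3 in both groups.

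Histone H3, which carries most of the studied tail modifications, had 6 of 11 clustered genes higher and a sum 1.96-fold higher. H3C12 went from 0.348 ± 0.133 to 1.05 ± 0.212 (log2 change 0.87, SE 0.157, adjusted p = 8.89e-04) and H3C10 from 0.848 ± 0.0589 to 1.8 ± 0.31 (log2 change 0.76, SE 0.129, adjusted p = 6.05e-04). H3C14 (1.1, 1.03 and 0.976 against 2.15, 2.36 and 1.6; log2 change 0.71, SE 0.134, adjusted p = 0.00115) and H3C15 (1.14, 1.0 and 0.924 against 2.15, 2.25 and 1.57; log2 change 0.70, SE 0.136, adjusted p = 0.00137) have the same transcript sequence on chromosome 1, so their values are in effect 1 measurement. H3C8 moved from 0.096 ± 0.0591 to 0.378 ± 0.0506 (log2 change 0.56, SE 0.13, adjusted p = 0.00391) and H3C1 from 0.604 ± 0.103 to 1.03 ± 0.187 (log2 change 0.47, SE 0.135, adjusted p = 0.0126). The H3C1 call ended without vector replicate 3 (adjusted p = 0.0525). H3C4 (0.187 to 0.264), H3C6 (0.869 to 1.34, adjusted p = 0.0558, and 0.0251 with the replicate block), H3C7 (0.276 to 0.47) and H3C13 (0.283 to 0.616, adjusted p = 0.0942, and 0.0263 with the replicate block) did not pass. H3C11, the third least changed of the class, gave 0.0669, 0.0218 and 0.105 against 0.073, 0.055 and 0.128.

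Histone H4 had 8 of 13 clustered genes higher, and its sum rose 1.85-fold. H4C12 (chr6:27831216-27831527, minus strand) read 4.32, 3.43 and 3.42 and then 7.41, 6.38 and 7.13 (log2 change 0.83, SE 0.11, adjusted p = 1.19e-04). H4C11, which can share reads with it over 81.2% of its 50-base words, went from 2.57 ± 0.532 to 4.56 ± 0.318 (log2 change 0.73, SE 0.129, adjusted p = 7.70e-04). The chromosome 1 pair H4C14 (2.42 ± 0.311 to 4.42 ± 0.306; log2 change 0.75, SE 0.111, adjusted p = 2.35e-04) and H4C15 (2.42 ± 0.311 to 4.46 ± 0.303; log2 change 0.77, SE 0.11, adjusted p = 2.07e-04) is likewise near-identical and overlaps H3C14 and H3C15 on the other strand. H4C9 moved from 0.409 ± 0.13 to 1.16 ± 0.291 (log2 change 0.87, SE 0.164, adjusted p = 0.00118). H4C3 read 1.44, 3.97 and 3.26 in the vector libraries and 3.28, 6.38 and 6.43 in the others (log2 change 0.82, SE 0.305, adjusted p = 0.0403). Replicate 1 was the lowest in both groups, the groups overlapped, and the call ended without vector replicate 1 or replicate 2 or 3 labelled SRMS shRNA (adjusted p up to 0.14).

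H4C4 (0.15 to 0.425; log2 change 0.49, SE 0.182, adjusted p = 0.0416) and H4C8 (0.556 to 0.97; log2 change 0.48, SE 0.181, adjusted p = 0.0428) passed with overlapping groups. Single libraries decided both calls: any but replicate 1 labelled SRMS shRNA for H4C4 (adjusted p up to 0.143), and any but vector replicate 3 and replicate 3 labelled SRMS shRNA for H4C8 (up to 0.141), which edgeR did not call (adjusted p = 0.0737). H4C1 was the least changed replication-dependent gene and the only one with an estimate below 0, at 0.268, 0.218 and 0.192 against 0.292, 0.192 and 0.192 (95% interval of the log2 change -0.28 to 0.27). H4C2 (0.113 to 0.192), H4C5 (0.578 to 0.871, adjusted p = 0.0559, and 0.0373 with the replicate block), H4C6 (0.12 to 0.222) and H4C7 (0.0218 to 0.126) did not pass. H4C16, outside the clusters, gave 0.368, 0.349 and 0.261 against 0.328, 0.33 and 0.192 and did not pass either (adjusted p = 0.631).

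Leaving out 1 library at a time, 31 of the 43 calls over all histone genes were kept with each of the 6 libraries left out, and 12 were ended by at least 1 of them. All 12 are genes at or near the threshold named above or, among the variants, H1-10. Without replicate 1 of both groups, 44 histone genes were higher and 1 lower, and 36 of the 58 replication-dependent genes were higher. The share over all genes in that fit is not given here, so these counts describe the histone genes alone. Replicate 1 stood apart from replicates 2 and 3 in both groups, with a chi-square per gene of 3.55 to 5.07 between it and the others and of 1.79 and 1.65 between replicates 2 and 3.

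By position, the 28 genes of the most telomeric chromosome 6 cluster had 14 higher, the 5 of the next 5 higher and the 15 of the most centromeric 12 higher, with sums raised 2.01, 1.91 and 1.91-fold. In the middle one H2BC12 held 92.9% of the vector sum, and the other 4 genes rose 1.64-fold in sum. The 9 genes of the main chromosome 1 cluster had 4 higher and a sum raised 1.75-fold. H2AC25, the 1 gene measured from its part of chromosome 1, rose 1.33-fold. Over all genes 26.6% were higher, and of other genes with a transcript under 700 bases 66.2%. Differences between the clusters were not tested.

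Several genes are arranged head to head with a shared promoter region, and 9 such pairs with start sites 219 to 357 bases apart were measured. In 7 of them both genes passed the test in the same direction, where 26.6% of all single genes were higher. H2BC17 is counted with H2AC17 and again with H3C12, whose gene covers H2AC17 on the same strand, so those pairs are not separate. The partners of H2BC12 and H2AC12 differed 230-fold in signal per kilobase of their models in the vector libraries (116 against 0.506), and both rose. For the H2BC4 and H2AC6 pair the levels per kilobase were 2.18 and 1.54, and both rose. H2BC21 and H2AC20 on chromosome 1 were the pair in which neither passed. In the remaining pair H2AC8 rose and H2BC8 did not pass.

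Promoters are shown for 3 clustered genes that rose and for MACROH2A1, the member that fell, as the 250 bases before the start site, 5′ to 3′ on the gene's strand (RefSeq, GRCh38.p14). Capitals mark the octamer ATTTGCAT bound by POU2F1, the TATA box TATAAA and the CCAAT box, each on either strand, where neighbouring matches can overlap.
H2BC12, chr6:27146859-27147108, minus strand: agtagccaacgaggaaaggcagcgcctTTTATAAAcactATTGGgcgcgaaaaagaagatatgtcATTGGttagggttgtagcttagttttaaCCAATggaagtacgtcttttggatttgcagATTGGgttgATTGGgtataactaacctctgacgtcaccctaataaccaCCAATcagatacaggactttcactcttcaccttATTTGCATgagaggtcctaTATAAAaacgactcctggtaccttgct
H2AC6, chr6:26123922-26124171, plus strand: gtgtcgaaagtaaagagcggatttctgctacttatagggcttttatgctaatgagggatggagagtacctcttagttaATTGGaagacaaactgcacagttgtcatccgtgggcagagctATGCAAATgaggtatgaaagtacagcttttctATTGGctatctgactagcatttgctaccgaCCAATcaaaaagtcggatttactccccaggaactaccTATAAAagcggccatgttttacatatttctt
H4C12, chr6:27831561-27831810, minus strand: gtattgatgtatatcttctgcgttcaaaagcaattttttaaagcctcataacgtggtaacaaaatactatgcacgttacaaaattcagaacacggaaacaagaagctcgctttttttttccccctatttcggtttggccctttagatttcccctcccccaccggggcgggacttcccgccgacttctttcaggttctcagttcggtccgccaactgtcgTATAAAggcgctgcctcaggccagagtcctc
MACROH2A1, chr5:135399232-135399481, minus strand: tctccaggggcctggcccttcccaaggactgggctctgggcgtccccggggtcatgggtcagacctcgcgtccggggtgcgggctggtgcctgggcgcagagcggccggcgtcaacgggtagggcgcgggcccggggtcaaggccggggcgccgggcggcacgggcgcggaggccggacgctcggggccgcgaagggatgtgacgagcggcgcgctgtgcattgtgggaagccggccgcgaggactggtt
The H2BC12 window holds all 3 motifs, the H2AC6 window holds all 3 with the octamer on the other strand, the H4C12 window holds a TATA box alone, and the MACROH2A1 window holds none of the 3.

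Promoter windows were found for 53 of the 58 replication-dependent genes and 9 of the 11 variants, and for 11313 of all genes tested. The octamer was in 22 of the 53 (41.5%) against 1.39% of all windows, and in 12 of 15 H2B and 9 of 12 H2A genes but in 1 of 9 H3 and no H1 or H4 gene. The TATA box was in 34 (64.2%, against 6.11%) and the CCAAT box in 44 (83.0%, against 35.4%). An E2F core TTTCCCGC was in 1 of the 53 (1.89%) and in 2.14% of all windows. Windows of neighbouring genes can overlap, so that 1 motif is counted for both. The H3 gene with the octamer is H3C4, whose window (chr6:26199294-26199543) shares that octamer with the H2BC7 window (chr6:26199266-26199515). The H3C4 model used here lies at chr6:26196840-26197250. Of the genes with the octamer 13 of 22 were higher, and of those without it 20 of 31, with median log2 changes of 0.39 and 0.49. The difference between genes with and without the octamer was not tested, and 26.6% of all genes were higher.

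Transcript ends were described in the same way. Among the 26 replication-dependent genes with a stem-loop, it began 22 to 56 bases after the stop codon, and 22 have a transcript model that runs more than 50 bases past it. A spliced transcript model exists for 10 of the 26. Where 26.6% of all genes rose, 19 of the 26 did, beside 13 of the 27 with coding-only models and 4 of the 5 whose UTR has no stem-loop. Their median log2 changes were 0.63, 0.38 and 0.41 by limma and 0.89, 1.10 and 0.85 by edgeR, so the order depends on the scale. These groups also differ in signal, with 12 of 26, 23 of 27 and 2 of 5 having a mean below 1. The poly(A) signal AATAAA was in the last 50 bases of a transcript in 17 of the 58 genes (29.3%) and in 74.4% of all genes tested. Of these 17 genes 14 rose, at medians of 0.66 by limma and 0.87 by edgeR, and of the other 41 genes 22 rose, with medians of 0.40 and 0.95. The order of the 2 groups thus depends on the scale, and the 2 groups differ in signal, 5 of 17 and 32 of 41 having a mean below 1.

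Of the 11 variant genes, 10 had a mean signal of at least 1. H2AZ1, the variant at promoters and enhancers, had the largest signal per kilobase, 849 in the vector libraries, and read 899, 789 and 804 against 1154, 1079.6 and 1062 (log2 change 0.40, SE 0.0524, adjusted p = 1.04e-04). H2AZ2, its close relative, had 187 per kilobase and went from 141 ± 4.2 to 173 ± 4.48 (log2 change 0.30, SE 0.037, adjusted p = 7.98e-05). H2AJ (chr12:14774383-14778002, plus strand) showed the largest rise of a variant, from 24.4, 24.6 and 25.6 to 37.6, 43.4 and 42.8 (log2 change 0.72, SE 0.0617, adjusted p = 6.93e-06), with no overlap between groups. H2AX read 109, 141 and 137 and 130.4, 175 and 171, with replicate 1 the lowest in both groups. It missed the threshold (log2 change 0.30, adjusted p = 0.0514) and passed with the replicate number as a block (adjusted p = 5.45e-10).

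The H3.3 genes, whose protein replaces H3 outside S phase, both rose. H3-3A read 143, 149 and 150.4 in the vector libraries and 173, 192 and 182 in those labelled SRMS shRNA (log2 change 0.30, SE 0.0436, adjusted p = 2.01e-04), and H3-3B went from 388 ± 18 to 454 ± 11.2 (log2 change 0.23, SE 0.0396, adjusted p = 7.19e-04). Their level per kilobase was 113 and 144 in the vector libraries. H3-5, an H3.3-like gene on chromosome 12, gave 14, 10.8 and 9.29 and 15.9, 13.9 and 9.75, with replicate 3 the lowest in both groups. It did not pass (log2 change 0.19, adjusted p = 0.369) except with the replicate block (adjusted p = 0.023). The linker variant H1-10 rose slightly, from 74.5 ± 5.82 to 86.3 ± 6.32 (log2 change 0.21, SE 0.0662, adjusted p = 0.0192), a call that ended without vector replicate 1 or replicate 2 or 3 labelled SRMS shRNA (adjusted p up to 0.0847).

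MACROH2A1 (chr5:135333900-135399914, minus strand), which encodes a variant with a large extra domain linked to silent chromatin, was the member that fell. Its signal was 218, 242 and 239.6 in the vector libraries and 117, 120.0 and 127 in those labelled SRMS shRNA, 0.520 of the vector level with no overlap (log2 change -0.94, SE 0.048, adjusted p = 3.62e-07). It stayed near that size by edgeR (log2 change -0.94) and after removal of the length and GC trend (-0.92). MACROH2A2, its paralog, read 0.301, 0.0873 and 0.122 against 0.182, 0.412 and 0.128 and did not pass (log2 change 0.14, 95% interval -0.25 to 0.53), so the summed macroH2A signal is that of MACROH2A1.

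**Figure D4:**
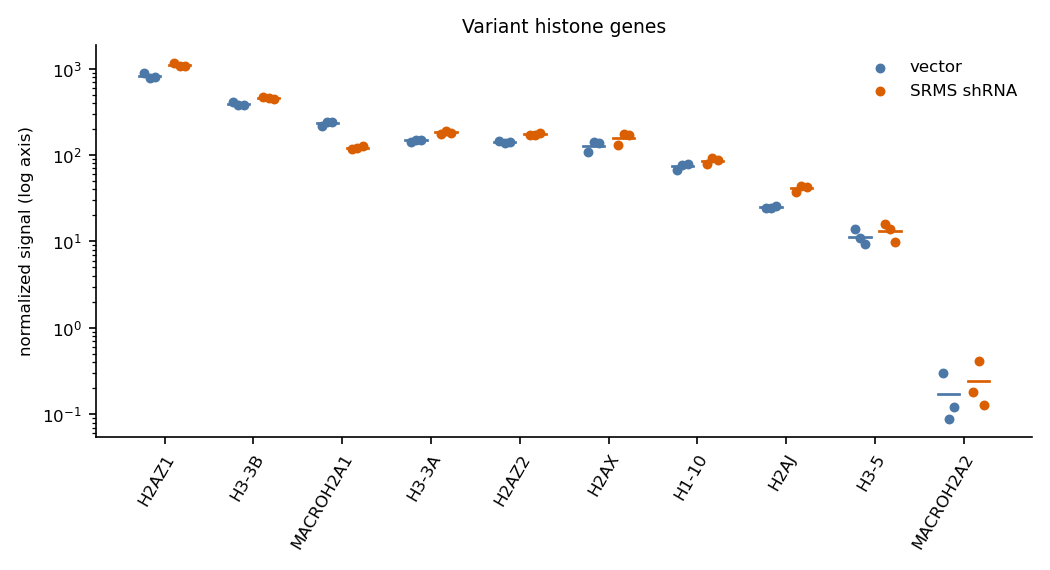
Normalized signal (y axis, log scale) of 10 of the 11 variant histone genes in each library; points are libraries and bars are means of 3. MACROH2A1 is the gene whose points fall, from 218 to 242 in the vector libraries to 117 to 127 in those labelled SRMS shRNA, while H2AJ shows the widest rise.

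Change went with transcript length over all genes, and the median transcript model of the clustered genes is short. Among the 20% of other genes with the shortest selected transcripts (median 1278 bases) the median log2 change was 0.23, and among the 20% with the longest (median 7085 bases) it was -0.24. The median replication-dependent transcript model is 546 bases. Of the 58 models 27 hold coding sequence only (median 393 bases), so they do not give the length of the polyadenylated transcript. The 26 genes with a stem-loop have a median of 1265.5 bases. Of 228 other genes with a transcript under 700 bases, 151 rose and 4 fell, and the median was 0.38 by limma and 0.45 by edgeR, beside 0.48 and 0.92 for the replication-dependent genes. Of 2156 other genes with a mean below 1, 490 were higher and 120 lower, with medians of 0.15 and 0.47. With the trend in length and GC content removed and the replicate number as a block, 20 of the 58 replication-dependent genes rose. Another 3 were called lower (H2AC20, H3C11 and H4C1), beside 34.4% higher and 27.5% lower over all genes, and the median of the 58 was 0.18. None of these 3 was called before the removal, with log2 changes of 0.03, 0.05 and -0.0026. The trend was fitted on genes with a mean log2 signal of at least 1 but removed from all genes, and these 3 lay below that level. With the trend removed, 50 of the 228 other genes under 700 bases rose and 62 fell, with a median of -0.03. Of the 43 histone calls 24 were kept and 19 were not. By model, 4 of the 27 coding-only genes rose and 3 fell, with a median of -0.05. Of the 26 genes with a stem-loop 14 rose and 0 fell (median 0.32). Of the 5 whose UTR has no stem-loop 2 rose and 0 fell (median 0.16). The correction used the length of the annotated model, and these groups also differ in signal.

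The genes were also divided by their mean signal. For the 21 replication-dependent genes with a mean of at least 1, 16 rose and none fell with the trend removed, with a median of 0.47, against 0.71 before. Of 11802 other genes at that level 4190 rose and 3695 fell in the same fit, with a median of 0.02. For the 37 with a mean below 1, 4 rose and the 3 named above were called lower, with a median of -0.04, against 0.38 before. Of 2156 other genes below 1, 612 rose and 150 fell in the same fit, with a median of 0.16. The genes kept include H2BC12 (0.49), H1-2 (0.63), H2AC6 (0.91), H2BC5 (0.82), H2BC9 (0.65), H4C9 (0.69) and H4C12 (0.35). Those that lost the call include H2AC25 (0.07), H2BC4 (0.25), H2AC14 (0.23), H1-4 (0.16) and H2AZ2 (-0.04), and H1-10 turned to -0.08 (adjusted p = 0.038). The part of length in the unadjusted changes was not otherwise tested.

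**Figure D5:**
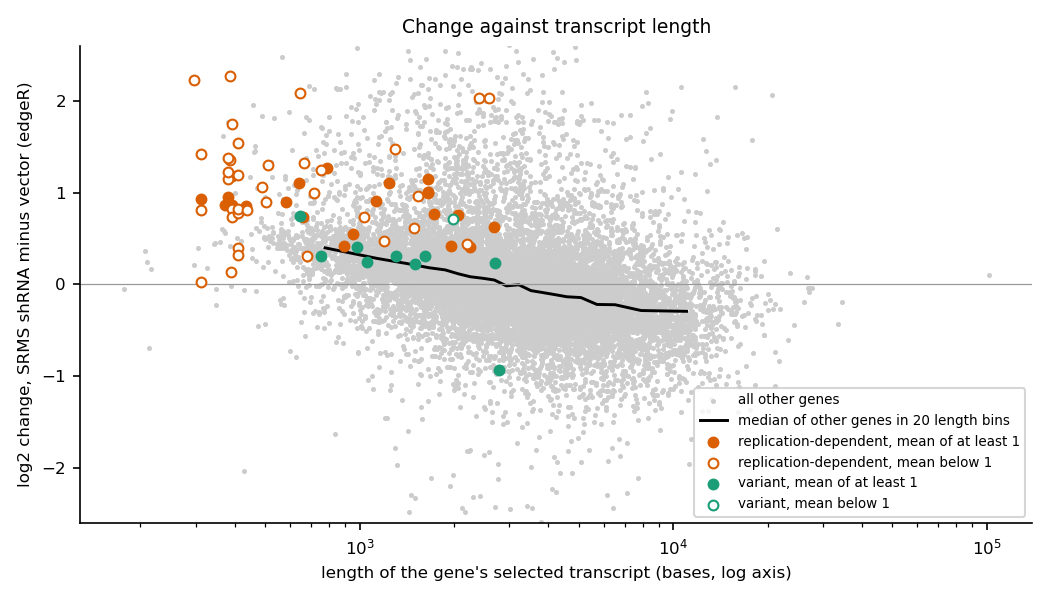
Log2 change by edgeR (libraries labelled SRMS shRNA minus vector, y axis) against the length of the gene's selected transcript (x axis, log scale); grey points are other genes, the line their median in 20 length bins, and 75 of them lie outside the y axis. The replication-dependent genes with a mean of at least 1 mostly lie above the line, most variants lie near it, and MACROH2A1 lies below it.

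Genes that make and handle histone transcripts were described from 5 lists, whose counts stand beside 26.6% higher and 30.2% lower over all genes, or 44.6% and 17.9% with scaling to the median gene. Of 17 genes for histone transcription and 3′ end formation 4 (23.5%) rose and 8 (47.1%) fell, and with that scaling, which raised the median log2 change of all genes from 0.00 to 0.16, 7 rose and 3 fell. NPAT fell the most, from 23.4, 23.3 and 22.9 in the vector libraries to 9.38, 7.95 and 9.69 in those labelled SRMS shRNA (log2 change -1.32, SE 0.079, adjusted p = 8.88e-07), and stood at a log2 change of -1.16 with median scaling. CASP8AP2, a component of the histone locus body, went from 59.7 ± 3.87 to 39.8 ± 5.31 (log2 change -0.58, SE 0.0836, adjusted p = 2.01e-04), and GON4L from 50.1 ± 2.54 to 36 ± 3.76 (log2 change -0.47, SE 0.0719, adjusted p = 2.91e-04). MIF4GD, a partner of SLBP in translation, rose from 9.38 ± 0.316 to 13.4 ± 0.484 (log2 change 0.50, SE 0.0691, adjusted p = 1.67e-04). SLBP, named in addition because it binds the stem-loop, read 454, 489 and 490.5 and 392, 431 and 442 (log2 change -0.18, SE 0.0495, adjusted p = 0.0103) but did not pass with median scaling (log2 change -0.02).

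Of 13 genes for decay of histone mRNA 5 (38.5%) rose and 4 (30.8%) fell (7 and 3 with median scaling). LSM7, of the ring that binds the oligouridylated end, rose from 142 ± 4.87 to 209 ± 10.5 (log2 change 0.55, SE 0.0437, adjusted p = 4.20e-06), and LSM1, of the cytoplasmic ring, from 59.8 ± 0.301 to 68.9 ± 1.52 (log2 change 0.20, SE 0.038, adjusted p = 0.00114), though without the length and GC trend LSM1 stood at -0.0042. UPF1, the helicase recruited by SLBP, fell from 199 ± 3.95 to 168 ± 0.916 (log2 change -0.24, SE 0.0322, adjusted p = 1.24e-04), and TUT7, a uridylating enzyme, from 20.5 ± 0.60 to 15.1 ± 0.854 (log2 change -0.43, SE 0.0637, adjusted p = 2.41e-04). Among 15 genes for general cleavage and polyadenylation 6 (40.0%) rose and 6 (40.0%) fell (7 and 5 with median scaling). The 4 with the smallest adjusted p all fell. WDR33, which reads the poly(A) signal, went from 67.5 ± 3.14 to 40.0 ± 1.3 (log2 change -0.75, SE 0.0482, adjusted p = 1.36e-06). The cleavage stimulation subunits were CSTF1, from 61.5 ± 0.335 to 42.1 ± 0.658 (log2 change -0.54, SE 0.0393, adjusted p = 2.53e-06), and CSTF2T, from 64.3 ± 3.2 to 45.4 ± 2.44 (log2 change -0.50, SE 0.0532, adjusted p = 2.99e-05). CPSF7, of cleavage factor I, went from 86.4 ± 0.895 to 70.7 ± 2.12 (log2 change -0.29, SE 0.0383, adjusted p = 1.22e-04).

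Of 23 histone chaperone and exchange genes 1 (4.35%) rose and 13 (56.5%) fell, but 9 rose and 8 fell with median scaling. HJURP, the CENP-A chaperone, fell from 108 ± 1.76 to 72.5 ± 1.22 (log2 change -0.57, SE 0.0359, adjusted p = 1.22e-06), while CENPA itself went from 22.6 to 24.9 (adjusted p = 0.0466). The CAF-1 subunits that load new H3 and H4 at the fork also fell, CHAF1A from 116 ± 4.04 to 81.4 ± 1.58 (log2 change -0.50, SE 0.0392, adjusted p = 3.94e-06) and CHAF1B from 60.4 ± 1.75 to 46.5 ± 1.18 (log2 change -0.37, SE 0.0428, adjusted p = 4.79e-05), as did EP400, of a remodeller that places H2A.Z, from 61.5 ± 2.38 to 44.9 ± 2.03 (log2 change -0.45, SE 0.049, adjusted p = 3.32e-05). In the list of 22 S phase genes 1 (4.55%) rose and 11 (50%) fell, against 7 and 7 with median scaling. CDC25A, the phosphatase that activates CDK2, fell from 80.7 ± 2.37 to 36.2 ± 1.01 (log2 change -1.15, SE 0.0431, adjusted p = 6.19e-08), CCNE2 (cyclin E2) from 122 ± 1.76 to 85.9 ± 1.54 (log2 change -0.50, SE 0.035, adjusted p = 2.03e-06), UHRF1, a reader of hemimethylated DNA, from 124 ± 5.62 to 78.5 ± 7.76 (log2 change -0.66, SE 0.0654, adjusted p = 1.72e-05) and CDC6, a licensing factor, from 137 ± 2.14 to 108 ± 5.48 (log2 change -0.34, SE 0.0419, adjusted p = 7.44e-05). With the replicate block and the length and GC trend removed, 5 of the S phase genes rose and 13 fell, beside 34.4% and 27.5% of all genes. In that fit 6 and 5 of the transcription and 3′ end genes, 6 and 3 of the decay genes, 8 and 5 of the cleavage genes and 9 and 12 of the chaperone genes rose and fell. The part of cell cycle position in the histone changes was not tested.

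Recovered depth was 28009232 to 56855428 reads a library, and the histone genes below 1 rest on few reads, for example 0 to 8 reads in each library for H1-1. Of 12 ovarian carcinoma and epithelial markers 8 were measured, with VIM, KRT18, KRT7 and KRT8 well expressed and PAX8 (0.136 to 0.241) and NAPSA (0.159 to 0.297) near the floor. Summed endothelial markers (4 of 5 measured) ran at 261, 256 and 253 and 168, 161 and 160.4, nearly all from TIE1. Fibroblast markers (4 of 6) ran at 1239.5, 1239.6 and 1237 and 816, 821 and 814, nearly all from COL1A1, with COL1A2 and COL3A1 near 0. Leukocyte markers (4 of 7) ran at 49.5, 52.1 and 52.2 and 60.6, 65.1 and 62.8, mainly from CD68, and the erythroid marker measured (1 of 5), ALAS2, stayed below 1. Their part in the histone values was not tested.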

How the data were processed

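Poly(A) RNA of 12 ES-2 samples was sequenced as stranded libraries, per the labels' protocols. The submitters' processing notes name FastQC, cutadapt, HISAT2, StringTie, edgeR and GRCh38. On versions, settings, strand counting and low-gene filters nothing is given in the sources used here. The deposited table holds a normalized signal per gene for the 6 cisplatin libraries, and the authors made it from whole reads, since at least 99.99% of values are whole multiples (within 0.1) of what 1 read is worth. From 14042 rows, 13 copies on chromosome Y were left out. limma 3.58.1 tested log2(signal + 0.5) between the groups, with Benjamini-Hochberg adjustment over 14029 genes. Recovered reads went to edgeR 4.0.16 and DESeq2 1.42.0 (R 4.3.3). The main limma fit and the edgeR fit were tested on simulated data. Transcript models came from GENCODE 29 and symbols matched 14007 genes. The 95% intervals come from limma and rest on the spread between the libraries.

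The members, the gene lists and the rule for named genes were chosen with earlier results of these data known. That rule names each histone gene, gives full statistics for those past the threshold, and takes up to 4 genes with the smallest adjusted p from each other list. Replicate numbers were taken as pairing the samples, because same-numbered libraries deviated together (correlations 0.309, 0.106 and 0.120), although replicates 2 and 3 did so across numbers too (0.114 and 0.113). The PBS samples were not analysed here. The values of 1 member are not reported here, and it is left out of the figures but not of the counts, medians and sums. Alternatives covered scaling, pseudocount, a filter on low signal, no trend, the replicate block, a length and GC correction, both count tools, and leaving out libraries.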

Additional observations from a re-analysis of the deposited data

How the results depend on the processing

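Of the 43 histone calls, 22 kept direction and side of the threshold under each of 18 alternatives that tested them. The number of histone genes called was 21 of 25 tested with a filter on the mean log2 signal (1 or more), where fewer genes were tested, and 31 to 55 under the other alternatives, leave-one-out included. The share of all genes called also moved. Where given, the share higher ran from 19.8% with replicates 2 and 3 averaged to 44.6% with median scaling. The median log2 change of the replication-dependent genes (0.48) was 0.64 with median scaling, 0.33 with quantile scaling, 0.33 with a pseudocount of 1, 0.79 with 0.1, 0.75 with the filter on low signal, 0.92 with edgeR, 0.92 with DESeq2, and 0.18 with the replicate block and the length and GC trend removed, and it ran from 0.41 to 0.50 when 1 library was left out. That of the variants (0.23) was 0.39 with median scaling, 0.30 with a pseudocount of 0.1, 0.26 with the filter, 0.31 with edgeR, 0.31 with DESeq2, 0.31 without replicate 1 of both groups and 0.055 with the block and the trend removed, and it ran from 0.22 to 0.27 when 1 library was left out. Removing the length and GC trend with the block turned the sign of 24 of the 71 histone genes, 17 of them called neither before nor after. The other 7, and LSM1, went to -0.43 for H2AC20, -0.075 for H1-10, -0.0148 for H1-1, -0.0418 for H2BC14, -0.0692 for H2AC16, -0.41 for H3C11, -0.0385 for H2AZ2 and -0.0042 for LSM1; the cause was not tested. The replicate block alone gave 48 histone genes higher and 1 lower and changed no call beyond those given with it. Over all genes, 3736 rose and 4233 fell, against 6254 and 2510 with median scaling. Low depth limits the genes with a mean signal below 1, which are 37 of the 58 replication-dependent genes.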
